A study of Mus musculus with 12 samples.

Results

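The genes described here are 40 genes of the endothelium, the cell layer that lines blood and lymph vessels, and of angiogenesis, the growth of new vessels from existing ones. They were taken as a fixed list of symbols, chosen with earlier results of these data known. All 40 were found among the 35896 annotated genes to which the deposited transcripts could be assigned. The samples were 12 whole uteri of wild-type female Swiss Webster mice, an outbred stock, aged 8 to 12 weeks and sorted by stage of the estrous cycle, with 3 uteri each in proestrus (replicates 1, 2 and 3), estrus (3, 4 and 5), metestrus (5, 6 and 7) and diestrus (3, 4 and 5). The labels name no transgene and no treatment, and they do not say how a stage was read or whether the uteri were processed in batches. RNA was profiled with 3' TagSeq, which reads a stretch near the 3' end of each polyadenylated transcript, so that its counts do not scale with gene length.

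New vessels grow when vascular endothelial growth factor (VEGF) ligands made by surrounding cells act on receptor kinases of endothelial cells. Angiopoietins acting on the receptor Tek then settle or loosen the vessel wall, and Notch signalling between neighbouring endothelial cells sets which of them sprout. The endometrium is one of the few adult tissues in which vessels grow and regress in every cycle, under the steroid hormones estradiol and progesterone.

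Values are given in CPM, in which each gene's count is set against its library's total after TMM scaling. The 12 libraries held between 1652841 and 2200563 estimated counts each. A count of 0 still allows up to 3 counts, or 1.37 to 1.83 CPM before TMM scaling. These limits cover counting error only. Each gene with enough counts (12052 in all, 38 of the 40 members) was tested over the 4 stages and in 6 comparisons between pairs of stages with edgeR's quasi-likelihood test, and a gene was called at a Benjamini-Hochberg adjusted p under 0.05 over all 12052 genes. Called and not called refer to this test, and calls made with other tools or settings are named as such. The labels speak of triplicate uteri without saying outright that each came from another animal, so the p-values measure only the spread between these samples, which may in part be technical. In whole tissue, fewer cells of a type and less RNA per cell cannot be told apart.

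Of the 38 tested members, 5 differed over the 4 stages: the growth factor Vegfb, its family's co-receptor Nrp2, the endothelial surface protein Eng, and Calcrl and Ramp2, which together form the adrenomedullin receptor. That is 13.2% of the members, against 23.2% of all tested genes, and 18 members had an unadjusted p under 0.05. In the comparisons between pairs of stages 10 members passed the test at least once and 28 never did. In diestrus against estrus alone, 9.72% of all tested genes were called higher and 13.0% lower. How many of all genes passed at least once, or had such an unadjusted p over the 4 stages, was not counted, so neither count sets the members apart. The endothelial genes Cdh5, Kdr, Tek, Esam, Emcn and Egfl7 each had counts in all 12 uteri. Members differed widely in level, from a mean of 2.54 CPM for Hey1 to 69.3 CPM for Ramp2 and 1417 CPM for Pecam1.

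**Figure D1:**
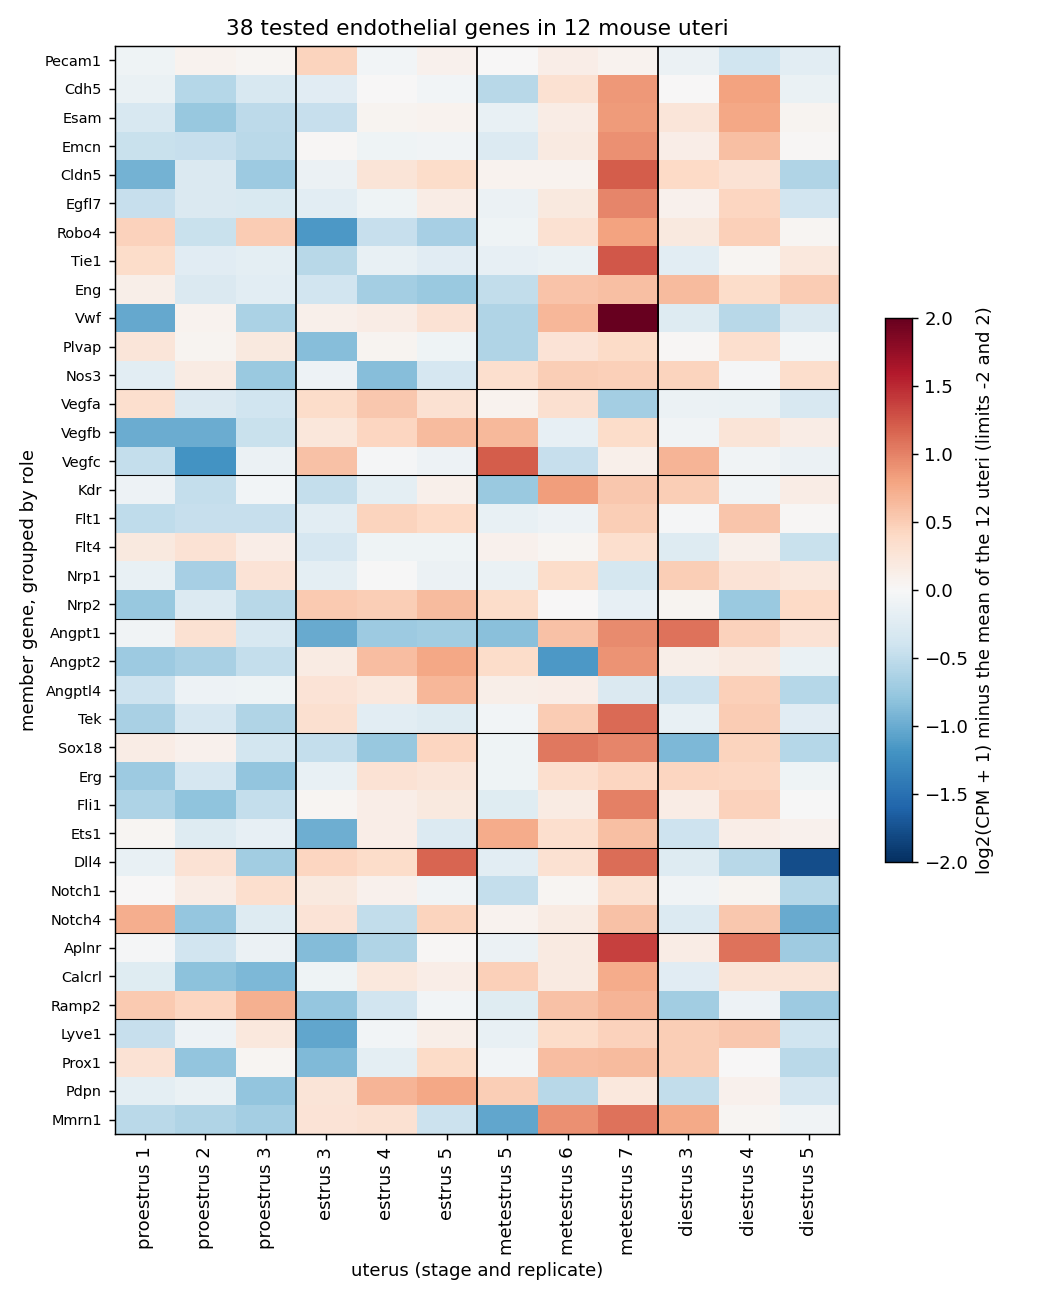
Heat map of the 38 tested members (rows, grouped by role from endothelial surface genes at the top to lymphatic genes at the bottom) in the 12 uteri (columns, by stage and replicate). Colour is log2(CPM + 1) minus the gene's mean over the 12 uteri, red above and blue below it. Metestrus replicate 7 holds the highest value of 18 of the 38 members.

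On GRCm38 (GENCODE M21) the called members lie on several chromosomes, and each value is the sum over the gene's transcripts. Among the growth factors and their receptors, Vegfb is at chr19:6982473-6987651 (minus strand), Nrp2 at chr1:62703285-62818695 (plus strand) and Flt1 at chr5:147561604-147726011 (minus strand). The surface genes Eng and Robo4 are at chr2:32646595-32682669 (plus strand) and chr9:37401897-37415115 (plus strand), and Calcrl and Ramp2 at chr2:84330626-84425411 (minus strand) and chr11:101246028-101259546 (plus strand). Angpt1 is at chr15:42424723-42676977 (minus strand), Erg at chr16:95359169-95586593 (minus strand) and Dll4 at chr2:119325784-119335962 (plus strand).

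RefSeq promoter windows (GRCm38.p6) were at hand for 24 of the 40 members, and 4 called members are shown because the binding sites of endothelial transcription factors of the ETS family, to which the members Erg, Fli1 and Ets1 belong, lie in windows of this kind. Each line gives the 250 bases before a RefSeq start of the gene, 5' to 3' on the gene's strand. GGAAGT or its reverse complement, a core that ETS factors bind, is in capitals. The Nrp2 window runs past the gene's GENCODE start at 62703285, and the transcripts Nrp2-202 and Nrp2-205 start at 62703702.
Eng, chr2:32646345-32646594, plus strand: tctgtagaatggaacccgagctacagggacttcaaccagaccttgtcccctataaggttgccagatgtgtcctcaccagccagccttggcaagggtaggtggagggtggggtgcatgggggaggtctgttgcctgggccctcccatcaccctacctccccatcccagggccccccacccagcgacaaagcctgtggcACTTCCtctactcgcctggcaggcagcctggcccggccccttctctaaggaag
Flt1, chr5:147726012-147726261, minus strand: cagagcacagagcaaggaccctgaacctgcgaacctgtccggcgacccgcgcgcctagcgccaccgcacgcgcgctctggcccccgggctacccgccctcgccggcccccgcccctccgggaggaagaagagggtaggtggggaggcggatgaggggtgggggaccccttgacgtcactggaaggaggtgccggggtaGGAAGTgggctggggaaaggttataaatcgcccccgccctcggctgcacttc
Nrp2, chr1:62703067-62703316, plus strand: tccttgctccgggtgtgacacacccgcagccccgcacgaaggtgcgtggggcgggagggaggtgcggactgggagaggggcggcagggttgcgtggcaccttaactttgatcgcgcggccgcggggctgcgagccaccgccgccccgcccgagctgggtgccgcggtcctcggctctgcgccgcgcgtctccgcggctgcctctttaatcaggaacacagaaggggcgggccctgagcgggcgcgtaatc
Dll4, chr2:119325534-119325783, plus strand: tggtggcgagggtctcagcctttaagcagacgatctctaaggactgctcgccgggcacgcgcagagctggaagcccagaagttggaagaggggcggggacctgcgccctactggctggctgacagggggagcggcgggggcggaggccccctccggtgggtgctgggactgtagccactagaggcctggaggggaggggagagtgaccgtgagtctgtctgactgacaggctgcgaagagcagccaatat
The Eng and Flt1 windows hold 1 match each, and the Nrp2 and Dll4 windows hold none. Searched on both strands, GGAAGT was in 6 of the 24 matched genes (Egfl7, Eng, Flt1, Kdr, Mmrn1 and Tie1), which is 23.3% of their 30 windows against 19.7% of the 32851 windows of all genes. The SOX core ACAATG was in 4 genes (13.3% of windows against 10.7%), and the hypoxia core ACGTG was in 2, Vegfa and Pdpn (6.67% against 16.6%). The palindromic estrogen response element was in no member window and in 0.0639% of all windows. These are matches of letters in a short window and not measured binding.

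Among the 12 genes of endothelial junctions and surface, Eng was the only one called over the 4 stages, and Eng and Robo4 were called in single comparisons. Eng, or endoglin, is a co-receptor for proteins of the TGF-beta family on endothelial cells. It measured 41.4, 31.1 and 32.7 CPM in the 3 proestrus uteri, 28.9, 23.3 and 22.3 CPM in estrus, 26.8, 57.1 and 58.5 CPM in metestrus and 59.4, 49.6 and 54.5 CPM in diestrus. All 3 diestrus uteri lay above all estrus and all proestrus uteri, while metestrus split into 1 uterus at the estrus level and 2 at the diestrus level. Eng was 2.20-fold higher in diestrus than in estrus (log2 1.14 ± 0.25 SE, edgeR quasi-likelihood test, adjusted p = 0.00599), and this call held whichever uterus was left out. Its rise from estrus to metestrus was 1.91-fold (adjusted p = 0.0439) with overlapping groups, and that call did not survive in 10 of 12 fits without 1 uterus (every uterus except diestrus replicate 4 and metestrus replicate 5), with an adjusted p of up to 0.142, and with limma-voom, on counts scaled from TPM and in a fit to these 2 stages alone (up to 0.129). Over the 4 stages Eng had an adjusted p of 0.0194, which rose to at most 0.0728 without diestrus replicate 3, estrus replicate 4 or estrus replicate 5 in turn. Exons of Fpgs overlap those of Eng on the opposite strand, and the use of strand in the counting is not given in the sources used here, so reads of the overlap cannot be told apart.

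Robo4, an endothelial guidance receptor that stabilises vessels, measured 17.0, 8.57 and 17.6 CPM in proestrus, 4.91, 8.51 and 7.27 CPM in estrus, 11.3, 15.1 and 21.9 CPM in metestrus and 13.9, 17.2 and 12.4 CPM in diestrus. Estrus was the low stage, and its 3 uteri lay below all 9 others, if only just below proestrus replicate 2. The diestrus level was 2.08-fold that of estrus (log2 1.05 ± 0.36 SE, edgeR adjusted p = 0.0474), a call not made in 8 of 12 fits without 1 uterus (each of the 3 estrus and 3 diestrus uteri and proestrus replicates 1 and 3, adjusted p up to 0.143) and with DESeq2 and limma-voom. Together with Eng, it was called higher in diestrus than in estrus in a comparison where 9.72% of all genes were.

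Cdh5, the cadherin of endothelial junctions, measured 40.8, 29.99 and 35.8 CPM in proestrus, 38.1, 45.4 and 43.2 CPM in estrus, 30.4, 55.8 and 82.8 CPM in metestrus and 45.1, 79.5 and 41.0 CPM in diestrus. The stages overlapped and Cdh5 was not called (edgeR adjusted p over the stages 0.293), except over the 4 stages without metestrus replicate 5. Of the other surface genes, the junction genes Esam and Cldn5, the sialomucin Emcn, the secreted factor Egfl7, the receptor Tie1, the nitric oxide synthase Nos3, the diaphragm protein Plvap and the clotting factor carrier Vwf, none was called by edgeR with all uteri and the filter on low counts. DESeq2 called Esam and Vwf over the 4 stages and Esam between proestrus and diestrus, as did scaling by library totals for Esam. Without metestrus replicate 5, Esam, Emcn, Egfl7 and Vwf were called both over the 4 stages and between metestrus and proestrus. Vwf had the widest spread, with 5.66, 15.1 and 41.4 CPM within metestrus against 3.97 to 11.4 CPM in the other 9 uteri, and 75.2% of its counts were on a transcript annotated as non-coding (Vwf-209).

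Pecam1, the adhesion molecule CD31 and the most used endothelial marker, needs a reading by transcript. Its sum measured 1324, 1472 and 1447 CPM in proestrus, 1909, 1357 and 1486 CPM in estrus, 1413, 1544 and 1477 CPM in metestrus and 1291, 1067 and 1219 CPM in diestrus. Diestrus lay below the other stages, but Pecam1 was not called (edgeR adjusted p over the stages 0.181). Of these counts 97.6% were assigned to a single transcript, Pecam1-208, which is annotated as a retained intron of the gene. How many of the reads came from Pecam1 was not tested.

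The other Pecam1 transcripts, which include the coding ones, measured 31.2, 25.7 and 27.7 CPM in proestrus, 24.6, 24.4 and 30.4 CPM in estrus, 24.2, 45.1 and 64.5 CPM in metestrus and 35.2, 46.1 and 31.5 CPM in diestrus. Counted this way, all diestrus uteri lay above all proestrus and estrus uteri, by as little as 31.5 against 31.2 CPM, where the sum had put diestrus below the others. With Pecam1-208 left out, the diestrus against estrus difference was log2 0.52 ± 0.28 (SE, edgeR adjusted p = 0.207) where the sum had fallen by 0.41 ± 0.15 (adjusted p = 0.0577), and edgeR called Pecam1 on neither count. The sum was called lower in diestrus than in estrus by DESeq2 and by edgeR without metestrus replicate 5, while the other transcripts ran the opposite way.

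**Figure D2:**
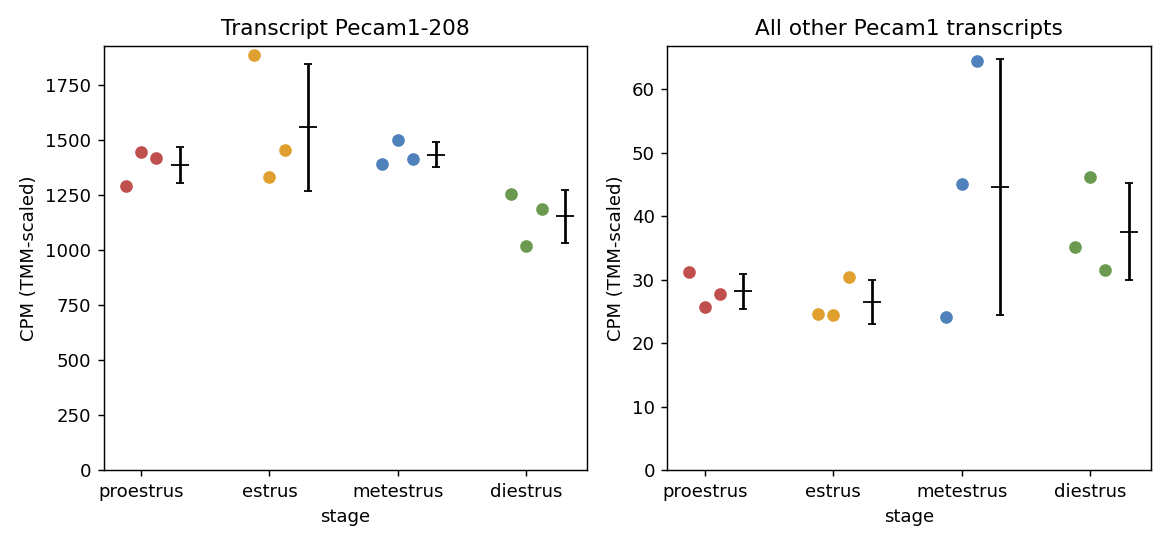
Pecam1 in the 12 uteri, split into the transcript Pecam1-208 (left) and all other Pecam1 transcripts (right), in CPM. Points are uteri and the bars give the mean ± SD of 3. Pecam1-208 lies between 1021 and 1884 CPM, while the others lie between 24.2 and 64.5 CPM, with diestrus low on the left and above proestrus and estrus on the right.

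Vegfb had the smallest p over the 4 stages of all 38 tested members, and it was low in proestrus. This ligand binds the receptor Flt1 and is known for effects on vessel survival and on fatty acid uptake by the endothelium. Its levels were 17.6, 17.7 and 26.2 CPM in proestrus, 42.4, 48.8 and 56.3 CPM in estrus, 57.2, 31.98 and 46.7 CPM in metestrus and 34.2, 43.2 and 39.9 CPM in diestrus. Each proestrus uterus lay below each of the 9 others, and the 3 later stages overlapped. Vegfb was 2.40-fold higher in estrus than in proestrus (log2 1.26 ± 0.23 SE, 95% interval 0.76 to 1.76, edgeR adjusted p = 0.00326) and 2.21-fold higher in metestrus than in proestrus (adjusted p = 0.0180), and 1.90-fold lower in proestrus than in diestrus (adjusted p = 0.0252). The difference over the 4 stages (adjusted p = 0.00647) and the rise into estrus held without any 1 uterus. The metestrus call was lost without proestrus replicate 1 or 2 (adjusted p up to 0.0839) and in a fit to these 2 stages alone (0.0913), and the diestrus call was lost without proestrus replicate 1 or 2 or diestrus replicate 4 or 5 (adjusted p up to 0.111).

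Vegfa, the main driver of sprouting, measured 47.6, 30.5 and 28.2 CPM in proestrus, 48.5, 55.0 and 46.8 CPM in estrus, 39.7, 47.0 and 23.1 CPM in metestrus and 34.7, 34.4 and 29.8 CPM in diestrus. Estrus uteri lay above all diestrus uteri but overlapped proestrus and metestrus, and Vegfa was not called (edgeR adjusted p over the stages 0.207). Diestrus against estrus was log2 -0.60 ± 0.24 (SE, edgeR adjusted p = 0.0883), which was called on counts scaled from TPM, in a fit to these 2 stages alone and without metestrus replicate 7. The lymphatic growth factor Vegfc had stage means between 6.54 CPM (proestrus) and 13.9 CPM (metestrus) and was not called either.

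The co-receptor Nrp2 had the clearest peak in estrus of the 5 VEGF receptor genes. It binds VEGF ligands and semaphorins and is most used by veins and lymphatic vessels. Its levels were 30.04, 42.3 and 34.8 CPM in proestrus, 74.3, 72.6 and 80.4 CPM in estrus, 66.4, 51.4 and 45.5 CPM in metestrus and 53.5, 30.4 and 68.0 CPM in diestrus. The 3 estrus uteri lay above all 9 others, and diestrus spanned the range from proestrus to metestrus. Nrp2 was 2.12-fold higher in estrus than in proestrus (log2 1.09 ± 0.24 SE, 95% interval 0.56 to 1.61, edgeR adjusted p = 0.00902), a call kept without any 1 uterus. Over the 4 stages its adjusted p was 0.0282, and that call was lost without proestrus replicate 1 or 3 or any of the estrus uteri (adjusted p up to 0.0988) and on counts scaled from TPM (0.0842).

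Flt1, the high-affinity VEGF receptor that acts largely as a decoy, was low and even in proestrus, at 23.8, 24.6 and 24.7 CPM. It measured 29.5, 47.1 and 45.4 CPM in estrus, 30.9, 31.98 and 48.5 CPM in metestrus and 33.7, 51.0 and 34.8 CPM in diestrus. Every proestrus uterus lay below every other uterus. The rise into estrus was 1.68-fold (log2 0.74 ± 0.24 SE, edgeR adjusted p = 0.0480). It was not made in 8 of 12 fits without 1 uterus (each proestrus uterus, estrus replicates 4 and 5, metestrus replicate 6 and diestrus replicates 3 and 5, adjusted p up to 0.177) and under 5 of 8 other settings. Of all genes, 9.67% were called higher and 7.46% lower in estrus than in proestrus, and of the members 3 were higher (Vegfb, Nrp2 and Flt1) and 1 lower (Ramp2).

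Kdr, the receptor through which Vegfa drives endothelial growth, measured 29.5, 22.5 and 30.7 CPM in proestrus, 22.7, 27.8 and 34.1 CPM in estrus, 18.5, 57.7 and 46.7 CPM in metestrus and 45.1, 30.4 and 35.4 CPM in diestrus. The stages overlapped, with both the lowest and the highest uterus in metestrus, and Kdr was not called (edgeR adjusted p over the stages 0.417). Without metestrus replicate 5 it was called over the 4 stages and in metestrus against estrus and against proestrus. The lymphatic receptor Flt4, at 5.06 to 9.46 CPM in single uteri, and the co-receptor Nrp1, at 18.2 to 42.1 CPM, were not called. The log2 ratio of Flt1 to Kdr counts within a uterus was -0.16 ± 0.25 in proestrus, 0.51 ± 0.21 in estrus, -0.02 ± 0.79 in metestrus and 0.10 ± 0.59 for diestrus (3 uteri each, SD), a difference not larger than the spread between uteri (exact permutation test, p = 0.450, adjusted over the 2 ratios tested 0.450).

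Flt1 and Nrp2 each split their counts over a pair of transcripts with 3' ends far apart, so that 3' tags could separate them. For Flt1 the annotated ends lie 73555 bases apart and belong to the full receptor (Flt1-202, 1333 residues) and a short form (Flt1-203, 688 residues) of the kind known as soluble Flt1, which lacks the membrane anchor and binds VEGF outside the cell. The short form took 40.3%, 37.7% and 47.0% of the counts of the 2 transcripts in proestrus, 49.5%, 57.9% and 68.5% in estrus, 47.5%, 49.1% and 41.0% in metestrus and 48.6%, 44.7% and 47.5% in diestrus. All 3 estrus uteri lay above all 9 others, although estrus replicate 3 did so by less than 1 point, and the 95% exact binomial intervals of single uteri were as wide as 26.3% to 57.9% (proestrus replicate 1). An exact permutation test of the F statistic over all 15400 partitions of the uteri gave p = 0.0131 (adjusted over the 2 shares 0.0261), and the p was 0.0685 without estrus replicate 5. The pair was picked after its counts had been seen, and an adjustment over 2 shares does not cover that choice. In CPM the short form stood at 10.03 ± 1.40 in proestrus and 24.1 ± 9.11 in estrus and the full form at 14.0 ± 0.944 and 16.1 ± 3.29 (mean ± SD, n = 3), values given without a test.

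The Nrp2 ends lie 19381 bases apart and belong to transcripts that code for 926 residues (Nrp2-202) and 901 residues (Nrp2-205). The shorter took 34.1%, 45.1% and 35.2% of their counts in proestrus, 62.9%, 62.7% and 56.7% in estrus, 59.2%, 52.8% and 35.6% in metestrus and 44.1%, 53.1% and 46.9% in diestrus. Estrus was above all proestrus and diestrus uteri and overlapped metestrus. The exact permutation test over the stages gave p = 0.0464 (adjusted 0.0464), which exceeded 0.05 in 9 of the 12 tests that left out 1 uterus and reached 0.116 without proestrus replicate 1, the others being proestrus 3 and each uterus of estrus and diestrus and metestrus replicate 6. Both pairs were picked after the transcript counts had been seen, and the authors' software shares reads that fit both transcripts between them by estimate.

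**Figure D3:**
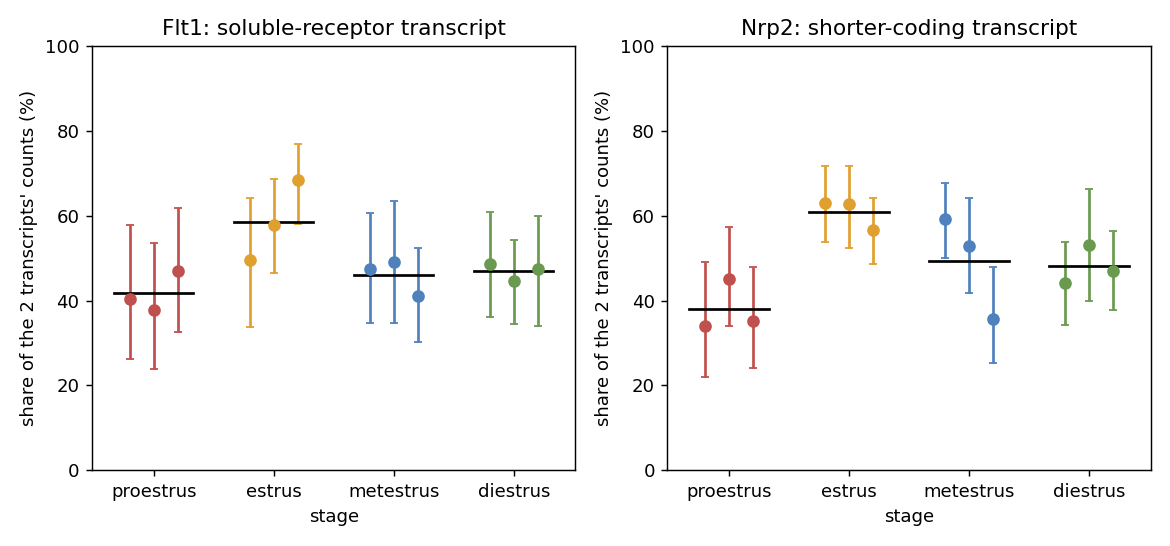
Share (percent) of the short, soluble form in the counts of the 2 Flt1 transcripts (left) and of the 901-residue form in those of the 2 Nrp2 transcripts (right), by stage. Points are uteri with 95% exact binomial intervals for counting error, and lines are stage means. The estrus means, 58.6% for Flt1 and 60.8% for Nrp2, are the highest of the 4 stages in both panels.

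Angpt1 was low in estrus and high in diestrus. It is the ligand that activates Tek and steadies vessels, and it is made by cells around the vessel. It measured 6.80, 9.10 and 5.54 CPM in proestrus, 3.07, 3.97 and 4.09 CPM in estrus, 3.60, 11.3 and 14.8 CPM in metestrus and 16.3, 10.3 and 8.99 CPM in diestrus. Estrus lay below all proestrus and diestrus uteri, and metestrus ran from the estrus level to the diestrus level. Angpt1 was 3.15-fold higher in diestrus than in estrus (log2 1.65 ± 0.48 SE, 95% interval 0.63 to 2.68, edgeR adjusted p = 0.0232). That call was lost without diestrus replicate 3 or any estrus uterus (adjusted p up to 0.0986) and with limma-voom (0.0607). The estrus values rest on 5, 7 and 9 counts, and the antisense gene Gm17473 overlaps exons of Angpt1.

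Angpt2, the partner ligand that is stored in endothelial cells and usually opposes Angpt1 at Tek, measured 4.53, 4.82 and 5.54 CPM in proestrus, 9.21, 13.1 and 14.5 CPM in estrus, 10.8, 3.14 and 15.97 CPM in metestrus and 8.91, 9.32 and 7.31 CPM in diestrus. All estrus and diestrus uteri lay above all proestrus uteri. The estrus to proestrus difference (log2 1.30 ± 0.45 SE, edgeR adjusted p = 0.0598) did not pass, and it was called in a fit to these 2 stages alone and without metestrus replicate 6 or 7. The log2 ratio of Angpt2 to Angpt1 counts within a uterus was -0.48 ± 0.45 in proestrus, 1.64 ± 0.14 in estrus, -0.04 ± 1.64 in metestrus and -0.43 ± 0.38 for diestrus (3 uteri each, SD). Estrus uteri had 1.49, 1.65 and 1.77, and metestrus uteri had 1.52, -1.75 and 0.11, so that metestrus held both the lowest uterus and one at the estrus level. The difference over the stages was not called (exact permutation test, p = 0.0758, adjusted over the 2 ratios 0.152), and p was 0.0158 without metestrus replicate 5 and 0.00260 without metestrus replicate 6.

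Tek, the angiopoietin receptor, measured 10.2, 12.9 and 10.6 CPM in proestrus, 20.9, 14.2 and 13.6 CPM in estrus, 15.96, 23.8 and 37.3 CPM in metestrus and 14.9, 24.0 and 14.1 CPM in diestrus. Proestrus uteri lay below all others, but Tek was not called by edgeR with all uteri, with metestrus against proestrus at log2 1.18 ± 0.33 (SE, edgeR adjusted p = 0.0608). DESeq2, edgeR without the filter on low counts and edgeR without metestrus replicate 5 called that difference. Angptl4, a secreted inhibitor of lipoprotein lipase, had stage means between 51.8 CPM (proestrus) and 78.5 CPM (estrus) and was not called, except in estrus against proestrus in a fit to these 2 stages alone and without diestrus replicate 4, which also called it over the 4 stages and in diestrus against estrus.

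Erg, an ETS transcription factor that keeps endothelial identity, was the only 1 of the 4 transcription factors called in the main edgeR fit. Other edgeR settings and other tools called Ets1 and Fli1. Erg measured 7.93, 10.7 and 7.56 CPM in proestrus, 12.3, 17.0 and 16.4 CPM in estrus, 12.9, 17.6 and 18.9 CPM in metestrus and 18.8, 18.6 and 12.9 CPM in diestrus. Proestrus uteri lay below all others. Erg was 1.92-fold lower in proestrus than in diestrus (log2 -0.94 ± 0.27 SE, edgeR adjusted p = 0.0453), a call lost without any 1 of the 3 proestrus uteri, estrus replicates 4 and 5 or diestrus replicates 3 and 4 (adjusted p up to 0.155) and under 5 of 8 other settings, DESeq2 and limma-voom among them. In that comparison 4.62% of all genes were called higher and 3.91% lower in proestrus, and of the members Ramp2 was higher and Vegfb and Erg were lower. Fli1, a relative of Erg, also had its 3 proestrus uteri below all others, at 12.3 to 15.6 CPM. The main edgeR fit did not call it (adjusted p = 0.0856 against diestrus). DESeq2 called it higher in metestrus than in proestrus. Without the filter on low counts, edgeR called Fli1 in that comparison, between proestrus and diestrus and over the 4 stages. Fits without 1 metestrus uterus and fits to 2 stages also called it. Ets1 had an edgeR adjusted p of 0.0502 between estrus and metestrus, just outside the threshold, and was called there with RLE size factors, with DESeq2, with limma-voom and without Pecam1-208. Without the filter on low counts, or without estrus replicate 4, edgeR called Ets1 there and over the 4 stages. Sox18 was called under none of these settings.

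Dll4, the Notch ligand of sprouting tip cells and arteries, was the only called member of the Notch group and the only one called lower in diestrus than in estrus, where 13.0% of all genes were. It measured 10.8, 15.0 and 7.05 CPM in proestrus, 16.6, 15.9 and 28.2 CPM in estrus, 10.3, 15.1 and 27.2 CPM in metestrus and 9.90, 7.85 and 2.81 CPM in diestrus. Diestrus uteri lay below all estrus and metestrus uteri. The diestrus level was 2.92-fold lower than that of estrus (log2 -1.55 ± 0.45 SE, 95% interval -2.52 to -0.57, edgeR adjusted p = 0.0257). This call was lost without estrus replicate 5 or diestrus replicate 4 or 5 (adjusted p up to 0.123), and it rests on 5 to 20 counts per diestrus uterus. The antisense gene Gm14207 overlaps exons of Dll4. Of the receptors, Notch1 had stage means from 30.8 to 39.3 CPM and Notch4 from 4.01 to 5.58 CPM, and neither was called. The target gene Hey1, at 0.504 to 5.02 CPM, had too few counts to be tested.

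**Figure D4:**
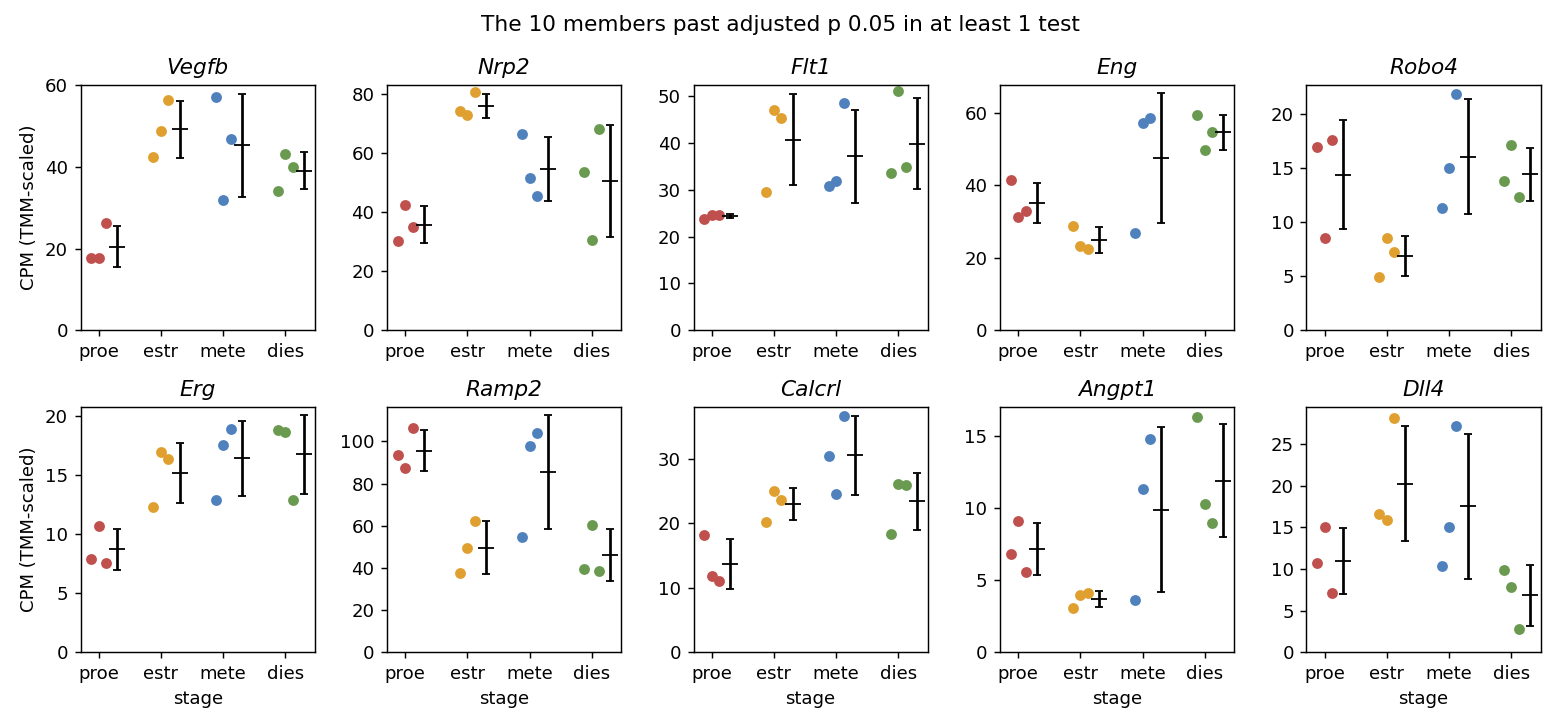
CPM of the 10 called members in the 12 uteri, by stage (proe, proestrus; estr, estrus; mete, metestrus; dies, diestrus). Points are uteri and bars the mean ± SD of 3, on axes that start at 0. Vegfb, Flt1, Erg and Calcrl are lowest in proestrus, Robo4, Eng and Angpt1 in estrus and Dll4 in diestrus, while Ramp2 is highest in proestrus and Nrp2 in estrus.

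The partners of the adrenomedullin receptor had opposite extremes in proestrus, Ramp2 high and Calcrl low. Ramp2 carries Calcrl to the cell surface and makes it a receptor for adrenomedullin, a vasodilating peptide needed for vessel integrity. Ramp2 measured 93.5, 87.3 and 106 CPM in proestrus, 37.5, 49.4 and 62.3 CPM in estrus, 54.6, 97.8 and 104 CPM in metestrus and 39.6, 60.4 and 38.8 CPM in diestrus. Proestrus uteri lay above all estrus and diestrus uteri, and metestrus covered both levels. Ramp2 was 1.91-fold lower in estrus than in proestrus (log2 -0.93 ± 0.25 SE, edgeR adjusted p = 0.0223) and 2.06-fold higher in proestrus than in diestrus (log2 1.05 ± 0.25 SE, adjusted p = 0.0195). Its difference over the 4 stages (adjusted p = 0.0132) held without any 1 uterus, and each of the pairwise calls was lost without proestrus replicate 1 or 3, without estrus replicate 3 or 4 (first call) and without diestrus replicate 3 or 5 (second call), with adjusted p up to 0.0863. Of its counts 98.2% were on the retained-intron transcript Ramp2-205, whose 3' end is that of the coding transcript Ramp2-204, and 31.7% of the gene's 31-base words occur in its neighbour Vps25.

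Calcrl measured 18.1, 11.8 and 11.1 CPM in proestrus, 20.3, 25.0 and 23.6 CPM in estrus, 30.4, 24.5 and 36.7 CPM in metestrus and 18.3, 26.01 and 25.9 CPM in diestrus. Proestrus, where Ramp2 was highest, held the lowest Calcrl values, below all others. Calcrl was 2.24-fold higher in metestrus than in proestrus (log2 1.16 ± 0.24 SE, 95% interval 0.64 to 1.69, edgeR adjusted p = 0.0206), and over the 4 stages its adjusted p was 0.0200. The first call was lost without proestrus replicate 2 or 3 or metestrus replicate 7 and the second without proestrus replicate 2 or 3 (adjusted p up to 0.0913), and both were lost on counts scaled from TPM (0.289 and 0.403), the first also in a fit to these 2 stages alone (0.0909). TPM divides by transcript length, and the estimated share of Calcrl counts on Calcrl-202 ran from 18.3% in estrus to 63.4% in metestrus. Whether this moved the TPM result was not tested. Calcrl and Vegfb were the 2 members called higher in metestrus than in proestrus, where 2.49% of all genes were higher and 1.82% lower.

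Apln, the peptide ligand that sprouting endothelial cells release, was counted mostly in diestrus. It measured 2.27, 1.07 and 0.504 CPM in proestrus, 0.614, 0 and 0 CPM in estrus, 0, 3.76 and 1.18 CPM in metestrus and 24.3, 2.94 and 12.9 CPM in diestrus. Diestrus replicate 4 lay below metestrus replicate 6, so the 2 stages overlapped, while diestrus lay above all proestrus and estrus uteri. In all there were 78 counts in diestrus, 7 in proestrus, 1 in estrus and 8 in metestrus, a ratio of 8.73 for diestrus to metestrus (95% exact interval 4.22 to 20.9) and 74.7 for diestrus to estrus (13.0 to 2989), intervals for counting error alone. Apln had too few counts to be tested, and without the filter on low counts it was called over the 4 stages (edgeR adjusted p = 1.45e-05) and higher in diestrus than in metestrus (adjusted p = 0.0214). Its receptor Aplnr ranged from 13.5 to 66.8 CPM and was not called (edgeR adjusted p over the stages 0.238), except between metestrus and estrus without the filter on low counts. Apln was singled out after its values were seen.

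No lymphatic member was called in any comparison in the edgeR fit to all 12 uteri. Lyve1, a hyaluronan receptor of lymphatic endothelium and of some macrophages, measured 19.8, 25.7 and 32.2 CPM in proestrus, 12.9, 26.7 and 29.99 CPM in estrus, 24.7, 35.7 and 38.4 CPM in metestrus and 39.1, 40.7 and 20.8 CPM in diestrus. Prox1, the factor that sets lymphatic identity, measured 6.80, 2.68 and 5.54 CPM in proestrus, 2.46, 4.54 and 7.27 CPM in estrus, 5.15, 8.78 and 8.87 CPM in metestrus and 7.92, 5.40 and 3.37 CPM in diestrus. In both genes the stages overlapped, with adjusted p over the stages of 0.470 and 0.671. Exons of Prox1os overlap those of Prox1 on the opposite strand. Pdpn, at 3.02 to 10.9 CPM, and Mmrn1, at 4.12 to 21.3 CPM, were also not called, except Mmrn1 over the 4 stages and in metestrus against proestrus without metestrus replicate 5, and Pdpn in a fit to estrus and proestrus alone.

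Across the members, metestrus and proestrus stood at the ends. The mean was highest in metestrus for 19 of the 38 tested members, against 17.8% of all genes, and lowest in proestrus for 20, against 27.0% of all genes, and no member was lowest in metestrus. The median log2 difference of the members from proestrus to metestrus was 0.64, against 0.02 for all genes, and 34 of 38 were above 0, although 2 were called. From proestrus to estrus the median was 0.29 (24 above 0), from estrus to metestrus 0.40 (28 above 0), from metestrus to diestrus -0.23 (8 above 0), from diestrus to proestrus -0.46 (9 above 0) and from estrus to diestrus 0.11 (22 above 0), with medians of all genes between -0.02 and 0.02. Of all tested genes, 47.9% to 51.6% were above 0 in these comparisons. The comparisons share uteri and are not independent. The members were also read in the same uteri, so the counts above 0 are not counts of independent observations. Between estrus and metestrus 1 member was called, Eng, against 2.83% of all genes higher and 4.73% lower, and between metestrus and diestrus none was, against 0.133% higher and 0.0913% lower. In the last comparison 4 of 38 members had an unadjusted edgeR p under 0.05, against 1361 of all 12052 tested genes. Between metestrus and proestrus 17 members did, against 2535 of all genes. For the other pairs it was 12 against 3766 (estrus and proestrus), 7 against 2825 (metestrus and estrus), 9 against 2667 (proestrus and diestrus) and 9 against 4315 (diestrus and estrus). For metestrus and diestrus, other tools were also read. DESeq2 and limma-voom called no member between those 2 stages.

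The metestrus pattern leaned on 1 uterus. Metestrus replicate 7 held the highest value of 18 of the 38 members (47.4%), against 11.6% of all genes, and metestrus replicate 5 lay within or below the estrus range for Cdh5, Kdr, Eng and Angpt1. Without replicate 7 the median from proestrus to metestrus was 0.45 (33 of 39 tested members above 0), from estrus to metestrus 0.14 and from metestrus to diestrus 0.03. Without replicate 5 these medians were 0.81, 0.64 and -0.34. Without diestrus replicate 4 the median from diestrus to proestrus was -0.29 (14 of 39 above 0), and that from estrus to diestrus turned to -0.03 (19 of 39 above 0). In these fits the 39 tested members include Apln. Markers of other cells also varied within metestrus: epithelial markers summed to 1028, 811 and 593 CPM in replicates 5, 6 and 7, smooth muscle markers to 4934, 6836 and 5651 CPM, and red cell genes, led by hemoglobins, to 162, 1423 and 829 CPM. In the same order, stromal markers summed to 4086, 7370.5 and 6475 CPM and leukocyte markers to 255, 186 and 352 CPM. The part of all these cells in the result was not tested.

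**Figure D5:**
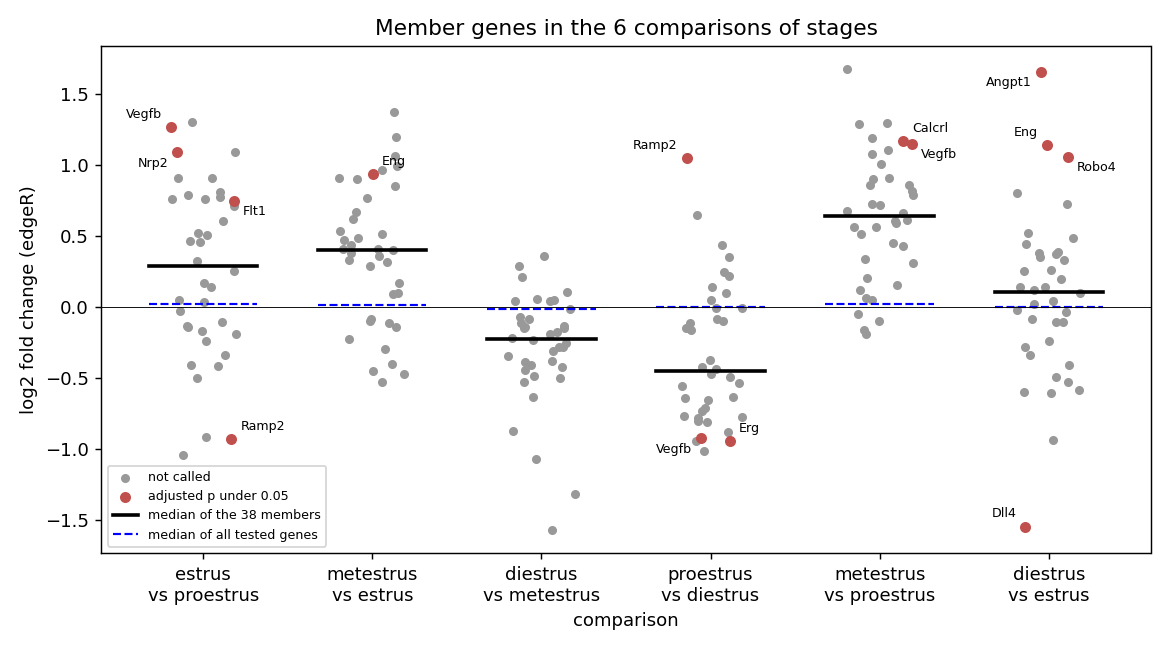
Log2 fold changes of the 38 tested members in the 6 comparisons, with called members in red and named, the members' median as a black line and the median of all 12052 genes as a dashed line. The members' median is 0.64 from proestrus to metestrus and -0.46 from diestrus to proestrus, while that of all genes stays at 0.02 or closer to 0.

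Other genes of the same pathways were read from lists outside the 40. Of 14 further VEGF and angiopoietin pathway genes tested, 5 differed over the 4 stages (35.7%): the lymphatic ligand Vegfd, at 24.8 ± 2.38 CPM in proestrus, 59.5 ± 4.92 in estrus, 30.8 ± 8.30 in metestrus and 19.2 ± 5.15 in diestrus (SD, n = 3), Angptl2, Plcg1, Hif1a and Sema3a. Angptl2, a secreted angiopoietin-like protein, was 41.9 ± 6.16 CPM in proestrus and 150.4 ± 29.0 in estrus (edgeR adjusted p = 0.00391 over the stages), and Plcg1, which relays the Kdr signal, was 16.6 ± 3.86 and 34.1 ± 3.96 (adjusted p = 0.0335). Hif1a, the oxygen-sensing factor that drives Vegfa, ran the other way, at 200.2 ± 23.5 CPM in proestrus and 104.4 ± 10.1 in estrus (adjusted p = 0.00177), and Sema3a, a ligand of Nrp1, stood at 32.7 ± 4.27 and, in diestrus, 17.5 ± 6.02 (adjusted p = 0.0437).

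Of 10 further genes of adrenomedullin, sphingosine phosphate and ephrin signalling, Adm, Ramp1 and Ramp3 differed. Adm, the peptide that the Calcrl and Ramp2 receptor binds, was 8.36 ± 2.07 CPM in proestrus, 24.4 ± 1.19 in estrus, 15.3 ± 1.47 in metestrus and 10.1 ± 2.76 in diestrus (SD, n = 3, edgeR adjusted p = 0.00245). The ligand was thus highest in estrus, where Ramp2 was low, and each estrus uterus exceeded all others. Ramp3, which also makes Calcrl an adrenomedullin receptor, followed Ramp2 in being high in proestrus, at 179.8 ± 11.2 CPM against 57.2 ± 12.4 in estrus (adjusted p = 0.0280), and Ramp1, which makes it a receptor for calcitonin gene-related peptide, was lowest there, at 24.1 ± 8.77 against 74.9 ± 4.18 (adjusted p = 0.00737). In the Notch list 1 of 6 tested genes differed, the target gene Hes1, from 131.2 ± 35.3 CPM in proestrus to 56.1 ± 11.7 in diestrus (adjusted p = 0.00597).

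Of 30 further endothelial genes, 8 differed, a share (26.7%) near the 23.2% of all tested genes, and the 5 with the smallest p were Sox17, Klf4, Ly6a, Icam1 and Aqp1. Sox17, a factor of arterial endothelium that uterine epithelium also makes, stood at 103.2 ± 9.69 CPM in diestrus and 34.2 ± 3.26 in estrus (SD, n = 3, edgeR adjusted p = 4.5e-05). Klf4 fell from 438.8 ± 101 CPM in proestrus to 82.2 ± 13.3 in diestrus. Ly6a and Icam1, which leukocytes and epithelium can also express, were highest in estrus, at 507.9 ± 105 and 28.3 ± 8.40 CPM, and the water channel Aqp1 was highest in metestrus, at 15.6 ± 1.10 CPM. Of 3 tested lymphatic genes, Ccl21a, the chemokine of lymphatic endothelium, peaked in metestrus at 215.0 ± 47.5 CPM, and Tspan18 rose from 13.2 ± 3.41 CPM in proestrus to 28.7 ± 1.35 in diestrus.

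Of 11 genes of mural cells, the pericytes and smooth muscle cells that wrap vessels, 3 differed, a share (27.3%) near the 23.2% of all tested genes. Rgs5, a pericyte marker, was 148.1 ± 16.95 CPM in proestrus and 273.0 ± 29.1 in diestrus (SD, n = 3, edgeR adjusted p = 0.00484), Mcam was highest in estrus at 53.4 ± 4.23 CPM and Anpep highest in proestrus at 184.5 ± 26.7 CPM. Of the markers of other cells of the uterus, 7 of 7 epithelial, 5 of 6 tested leukocyte, 4 of 6 smooth muscle and 3 of 6 stromal genes differed over the stages, and 1 of 4 mesothelial, 0 of 3 red cell and 0 of 1 tested fat cell genes did. Leukocyte markers summed to 127 to 170 CPM in proestrus and 332 to 418 CPM in estrus, epithelial markers to 1222 to 1629 and 1298 to 1559.5, and in diestrus to 189.9 to 252 and 639 to 773. The fat cell genes summed to 0.982 to 20.2 CPM, with Adipoq, Plin1, Cfd, Lep and Retn too low to be tested. All 10 genes of a hypoxia list, which holds targets of the oxygen-sensing pathway, differed over the stages. Of these, 8 were called higher in estrus than in proestrus, as were 5 of 6 tested leukocyte genes and 9.67% of all tested genes. The part of these cell types and of the hypoxia genes in the members' differences was not tested.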

How the data were processed

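RNA of 12 whole uteri was measured by 3' TagSeq, with no molecular identifiers described in the labels. The deposited files give kallisto's estimated counts and TPM per transcript, per the file headers, and the submitters' processing notes name FastQC, kallisto and DESeq2. The transcript set, genome build, options and use of strand are not given in the sources used here. Of 119414 transcripts 116640 (97.7%) were matched to the GENCODE M21 annotation of GRCm38, and estimated counts were summed per gene and rounded. Genes passing edgeR's filter on low counts were fitted over the 4 stages with TMM scaling (edgeR 4.0.16, quasi-likelihood test, Benjamini-Hochberg adjustment over 12052 genes), checked on simulated data. Alternatives were other scaling, no filter, DESeq2 1.42.0, limma-voom (limma 3.58.1), counts scaled from TPM, fits to 2 stages, a replicate block and leaving out each uterus. Scaling from TPM divides by transcript length, with which 3' TagSeq counts do not scale. Members and lists were chosen with earlier results of these data known. Values in every uterus are given for called members and for Pecam1, Cdh5, Kdr, Flt1, Tek, Vegfa, Angpt2, Lyve1 and Prox1. In other lists the called genes are named, at most 5 per list by smallest p. Apln, Vwf, Hey1 and the transcript shares were singled out after their values were seen.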

Additional observations from a re-analysis of the deposited data

How the results depend on the processing

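No called difference of a member changed its direction under these settings. The members' median did: from metestrus to diestrus it went from -0.23 to 0.03 without metestrus replicate 7, and from estrus to diestrus from 0.11 to -0.03 without diestrus replicate 4. Pecam1, not called, went from -0.41 to 0.52 between estrus and diestrus without Pecam1-208. In the counts that follow, the brackets give the calls among all tested genes, which moved too. Over the 4 stages 5 members were called (2793), against 15 without the filter on low counts (3345), 8 with DESeq2 (2850), 3 on counts scaled from TPM (1674), and 4 to 19 with 1 uterus left out (1910 to 3428). The 19 came without metestrus replicate 5, where 3428 genes were called. Between estrus and proestrus 4 were called (2064), against 8 in a fit to those 6 uteri alone (2788) and 2 to 8 with 1 left out (1100 to 2414), the 8 being without metestrus replicate 7. Between metestrus and estrus 1 was called (911), against 2 with RLE size factors (896), with DESeq2 (909) or without the transcript Pecam1-208 (883), 5 without the filter (1152), 0 from TPM (410) or in the fit to 6 uteri (299), and 0 to 6 with 1 left out (341 to 1364). Between diestrus and metestrus none was called (27), against 2 without the filter (256), Apln and Ramp2, and 0 with any 1 left out (5 to 173). Between proestrus and diestrus 3 were called (1028), against 5 without the filter (1285), 7 in the fit to 6 uteri (1463) and 1 to 8 with 1 left out (519 to 1281). Between metestrus and proestrus 2 were called (519), against 9 without the filter (935), 4 with DESeq2 (679), 1 from TPM (157), 0 in the fit to 6 uteri (42) and 0 to 11 with 1 left out (78 to 1080). Between diestrus and estrus 4 were called (2744), against 2 with limma-voom (2716) or from TPM (1801) and 2 to 6 with 1 left out (1910 to 3146). The highest count with 1 left out came without metestrus replicate 5 in the comparisons of metestrus with estrus and proestrus, and without metestrus replicate 5 or 7, a tie, in those of diestrus with proestrus and estrus. Apln is among the 15 without the filter and the 19 without metestrus replicate 5. It is also among the 4 called over the 4 stages without estrus replicate 5 or proestrus replicate 3. The highest counts of 8 (proestrus with diestrus) and 6 (diestrus with estrus) include it too. With 1 uterus left out it passed the filter only through its diestrus counts, where it was high, so its calls there add no support. Why the counts moved was not tested.

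Estrus and diestrus share the replicate numbers 3, 4 and 5. Uteri of the same number did not deviate together, with correlations across genes of -0.04, 0.01 and -0.02. Those of different numbers had -0.03 to 0.04. With 3 uteri per stage these values cannot settle whether same-numbered uteri shared a day or a batch. With the number as a replicate block 6 members were called (Robo4, Eng, Vegfa, Nrp2, Angpt1 and Dll4).

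With 1 uterus left out, the permutation p ran from 0.00260 to 0.161 for the Angpt2 to Angpt1 ratio, 0.2002 to 0.722 for Flt1 to Kdr, 0.00532 to 0.0685 for the soluble Flt1 share and 0.00461 to 0.116 for the Nrp2 share. Scaling by library totals moved the median log2 difference of all genes from 0.00 to 0.07 for diestrus against estrus and from -0.02 to 0.07 against metestrus, and changed the split of all calls from diestrus against estrus from 1172 higher and 1572 lower to 1359 and 1273, against metestrus from 16 and 11 to 26 and 6, and of proestrus against diestrus from 557 and 471 to 484 and 526. Depth limits the members with few counts most: Angpt1 had 5 to 9 counts per estrus uterus and Apln 0 or 1.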
